A study of Mus musculus with 15 samples.

Results

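The 10 small leucine-rich proteoglycan genes *Dcn*, *Bgn*, *Aspn*, *Lum*, *Fmod*, *Omd*, *Prelp*, *Kera*, *Ogn* and *Epyc* were followed through the development of the mouse secondary palate, the tissue that separates the mouth from the nasal cavity. They were taken by symbol from a table of 54232 genes, and all 10 were found and passed the filter on low counts that left 22151 genes for testing. The table held bulk RNA sequencing of palates of wild-type mice from E13.5, E14.5 and E15.5 through E16.5 (days of embryonic development) to P0 (the day of birth), a series that charts the transcripts of the palate over time. There were 3 libraries per stage over 5 stages, each of them a pool of palates from 3 embryos. All groups shared the wild-type genotype and no treatment was named. The labels do not say whether the pools of a stage came from different litters, so the p-values measure the spread between these pools.

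Small leucine-rich proteoglycans are secreted proteins built around a curved stack of leucine-rich repeats. They lie on the surface of collagen fibrils, where they set fibril thickness and spacing, and several of them also hold growth factors such as TGF-beta in the matrix. By sequence they fall into classes. Class I (*Dcn*, *Bgn*, *Aspn*) includes carriers of chondroitin or dermatan sulfate chains, class II (*Lum*, *Fmod*, *Omd*, *Prelp*, *Kera*) includes carriers of keratan sulfate, and class III holds *Ogn* and *Epyc*. In a palate, which is mostly mesenchyme at first and then lays down bone, they are matrix products of fibroblasts, osteoblasts and chondrocytes.

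Library totals ran from 21.5 to 69.0 M counts, and levels are given as counts-per-million values (CPM). A floor of 3 counts was worth between 0.0435 and 0.140 CPM. The lowest count of any of the 10 genes in any library was 52 (*Omd* in E13.5 library 2), so each gene was detected in every library. Floors cover counting error only. Libraries of a stage differed by far more than counting noise (chi-square per degree of freedom 29.5 to 225), and none was a repeat of another. The palate transcription factor *Pax9* was present in all 15 libraries (23.8 to 94.2 CPM). Other tissue was visible in a few libraries. A list of 6 choroid plexus markers, with none at 0 in any library, summed to 1409 CPM in E14.5 library 1 and 774 CPM in E14.5 library 3 against 31.1 CPM in E14.5 library 2, to 489 and 256 CPM in P0 libraries 2 and 3, and to between 27.2 and 138 CPM in the other 10. Lens transcripts stood out in E13.5 library 2 (416 CPM over 7 eye markers, at most 10.5 CPM elsewhere). The labels give no batch or date.

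Of the 10 genes, 9 lie in 3 clusters of neighbours and *Bgn* lies alone on the X chromosome. Positions are those of the deposited table, whose build is named mm10 (GRCm38). The cluster on chromosome 10 spans 202.8 kb and holds *Dcn* (97479609 to 97518143), *Lum* (97565128 to 97572703), *Kera* (97606879 to 97613692) and *Epyc* (97644068 to 97682454), all on the plus strand. The cluster on chromosome 13 spans 80.1 kb and holds *Aspn* (49544443 to 49567565), *Omd* (49582462 to 49592822) and *Ogn* (49608046 to 49624501), also on the plus strand. On chromosome 1, *Prelp* (133910304 to 133921414, minus strand) and *Fmod* (134037254 to 134048277, plus strand) lie back to back across 138.0 kb. *Bgn* spans 73483602 to 73495933 on the plus strand of chromosome X. The only annotated genes overlapping any of them lie on the opposite strand (*Cenpp* for the chromosome 13 cluster, *Gm15851* for *Prelp*, *Gm10754* for *Epyc*), and the counting used strand.

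**Figure D1:**
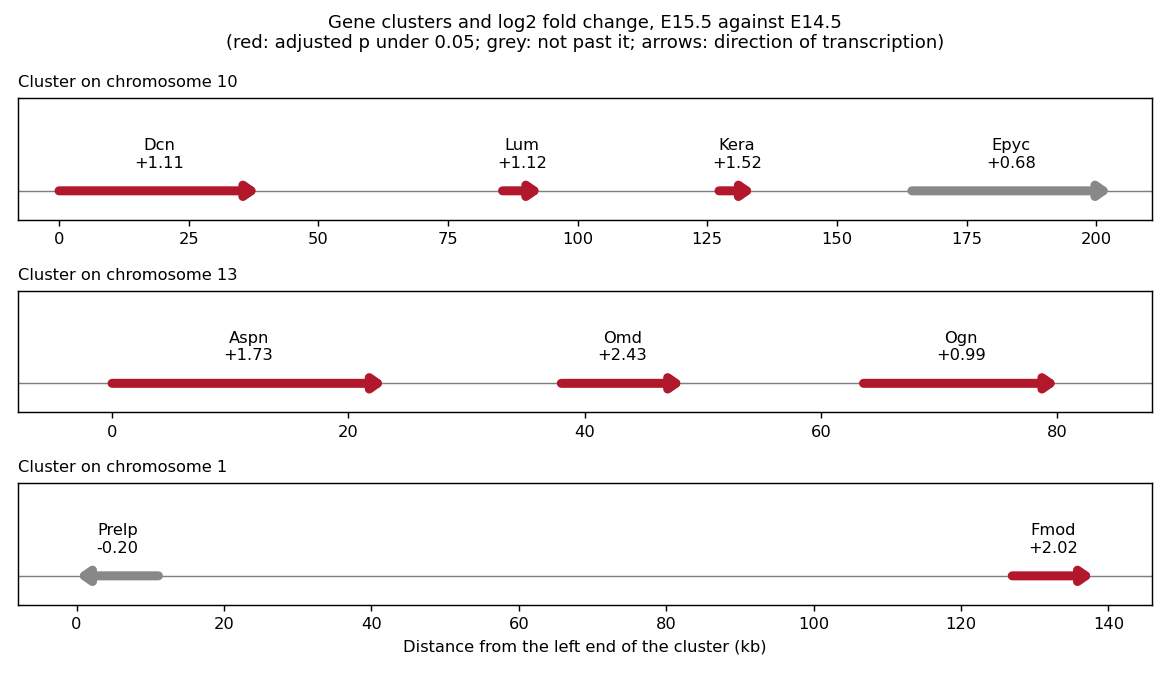
Maps of the 3 gene clusters, to scale in kilobases from the left end of each cluster, with arrows in the direction of transcription and the fitted log2 fold change of E15.5 against E14.5 above each gene. Red genes passed an adjusted p of 0.05 and grey genes did not: *Epyc* (0.68) and *Prelp* (-0.20) are the grey genes beside neighbours that rose.

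RefSeq promoter windows on GRCm38.p6 were on hand for 8 of the 10 genes, all but *Dcn* and *Lum*. The 250 bases before the annotated start are shown for 6 genes: *Bgn* and *Fmod*, whose levels ran most alike of all pairs of the 10, *Prelp*, the neighbour of *Fmod* that did not rise at E15.5, and the 3 genes of the chromosome 13 cluster. All read 5′ to 3′ on the strand of the gene. Capitals mark matches to any of 4 motifs searched on both strands, namely TATAAA (the TATA box), TGTGGT (the core read by RUNX factors), GGGCGG (the GC box) and TGANTCA (the AP-1 site). The windows are chrX:73483351-73483600 (plus) for *Bgn*, chr1:134037004-134037253 (plus) for *Fmod*, chr1:133921415-133921651 (minus) for *Prelp*, chr13:49544193-49544442 (plus) for *Aspn*, chr13:49582212-49582461 (plus) for *Omd* and chr13:49607765-49608014 (plus) for *Ogn*. The *Prelp* window is 237 bases long because the 13 bases nearest its start are exon in the GENCODE annotation.
Bgn: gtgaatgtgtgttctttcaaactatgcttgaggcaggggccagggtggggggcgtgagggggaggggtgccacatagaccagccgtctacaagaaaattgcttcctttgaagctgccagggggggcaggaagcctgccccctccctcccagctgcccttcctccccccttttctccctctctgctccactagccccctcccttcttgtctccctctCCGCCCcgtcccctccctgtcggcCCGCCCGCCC
Fmod: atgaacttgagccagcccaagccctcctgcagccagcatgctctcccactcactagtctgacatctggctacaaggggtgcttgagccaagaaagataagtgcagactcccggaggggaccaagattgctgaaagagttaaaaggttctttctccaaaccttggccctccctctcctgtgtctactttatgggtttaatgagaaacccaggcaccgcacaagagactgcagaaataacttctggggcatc
Prelp: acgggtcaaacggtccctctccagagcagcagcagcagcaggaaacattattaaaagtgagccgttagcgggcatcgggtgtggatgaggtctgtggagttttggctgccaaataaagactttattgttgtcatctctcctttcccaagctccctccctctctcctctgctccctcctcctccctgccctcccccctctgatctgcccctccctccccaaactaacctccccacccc
Aspn: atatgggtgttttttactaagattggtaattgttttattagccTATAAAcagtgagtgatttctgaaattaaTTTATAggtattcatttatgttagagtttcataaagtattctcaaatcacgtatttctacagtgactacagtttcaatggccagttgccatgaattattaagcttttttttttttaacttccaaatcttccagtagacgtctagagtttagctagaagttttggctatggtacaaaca
Omd: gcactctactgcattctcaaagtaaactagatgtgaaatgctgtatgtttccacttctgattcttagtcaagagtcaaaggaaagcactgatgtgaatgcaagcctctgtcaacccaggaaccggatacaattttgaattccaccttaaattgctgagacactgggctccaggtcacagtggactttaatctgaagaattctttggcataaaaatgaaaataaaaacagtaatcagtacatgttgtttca
Ogn: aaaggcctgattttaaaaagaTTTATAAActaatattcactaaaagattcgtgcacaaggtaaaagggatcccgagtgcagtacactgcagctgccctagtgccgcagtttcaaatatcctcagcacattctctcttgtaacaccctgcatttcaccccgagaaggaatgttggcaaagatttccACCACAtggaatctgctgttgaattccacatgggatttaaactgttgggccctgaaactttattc

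The windows differed in base composition. Their GC content was 64.4% for *Bgn*, 56.5% for *Prelp*, 51.2% for *Fmod*, 42% for *Ogn*, 38.4% for *Omd* and 30% for *Aspn*, against a median of 52.4% over 32851 windows. *Bgn* held 3 GC boxes on the opposite strand, with their first bases 34, 10 and 6 bases before the start, the last pair overlapping. *Ogn* held a TATAAA on each strand, overlapping, at 229 and 227 bases before the start, and a TGTGGT on the opposite strand at 65 bases. All distances are from the RefSeq start. The *Ogn* window ends at 49608014 while the deposited table starts the gene at 49608046, so its motifs lie farther from that start. *Aspn* held TATAAA at 207 bases on the strand of the gene and at 178 bases on the other strand. *Fmod*, *Omd* and *Prelp* held none of these letters in the window, and TGANTCA was in none of the 8 windows. Of all windows of this length, 12.4% held TATAAA, 14% TGTGGT, 32.7% GGGCGG and 6.75% TGANTCA. A match describes letters only.

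The main change in this gene family came between E14.5 and E15.5. Of the 10 genes, 8 were higher at E15.5 and none was lower (edgeR's quasi-likelihood test, Benjamini-Hochberg adjusted p under 0.05), where 12.7% of all tested genes were called higher, 13.4% lower and 26.1% in either direction. With upper-quartile scaling 8 of the 10 were again higher and none lower, while the calls over all genes moved from 2803 higher of 5773 to 3424 higher of 5431. The 8 also had an unadjusted p under 0.05, as did 39.7% of tested genes. The 8 were *Dcn*, *Bgn*, *Aspn*, *Lum*, *Fmod*, *Omd*, *Kera* and *Ogn*, and 7 of them were called with a fitted rise of at least 2-fold, against 9.55% of tested genes. *Ogn*, at 1.99-fold, lay just below that line. For each of the 8, every E15.5 library was above every E14.5 library, as was the case for 24% of tested genes, and none of the 10 was lower in every library, as 27.2% of tested genes were. The median log2 fold change of the 10 genes was 1.32, and that of all tested genes was 0.03. In bulk tissue a change in the number of cells of a type and a change in RNA per cell cannot be told apart.

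This count depended on the E14.5 and E15.5 libraries used. It was 5 without E14.5 library 1, 4 without E14.5 library 2, 8 without E14.5 library 3, and 5, 4 and 5 without E15.5 library 1, 2 and 3. The share of all tested genes called, 26.1% in the full fit, moved as well. It was 10.2%, 14.3% and 25.4% without E14.5 library 1, 2 and 3. Without E15.5 library 1, 2 and 3 it was 23.2%, 13.1% and 13.3%. *Bgn*, *Fmod*, *Omd* and *Aspn* passed in all 6 of these fits. *Dcn* passed in 1 of them (log2 fold change 0.82 to 1.70, adjusted p up to 0.137), *Kera* in 1 (1.19 to 1.92, adjusted p up to 0.187), *Lum* in 2 (0.80 to 1.58, adjusted p up to 0.0897) and *Ogn* in 3 (0.66 to 1.31, adjusted p up to 0.0589). In a fit to only the 6 libraries of the contrast 5 of the 10 passed, where 32.3% of all tested genes did. Without both E14.5 libraries rich in choroid plexus transcripts, a choice made after seeing the data that leaves 1 library at E14.5 and assumes it varies like the other stages, 1 of the 10 passed, *Dcn*. In that fit 2.44% of genes were called, while the log2 fold changes were close to the full fit for *Bgn* (1.50), *Fmod* (2.07), *Omd* (2.33) and *Aspn* (1.73).

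**Figure D2:**
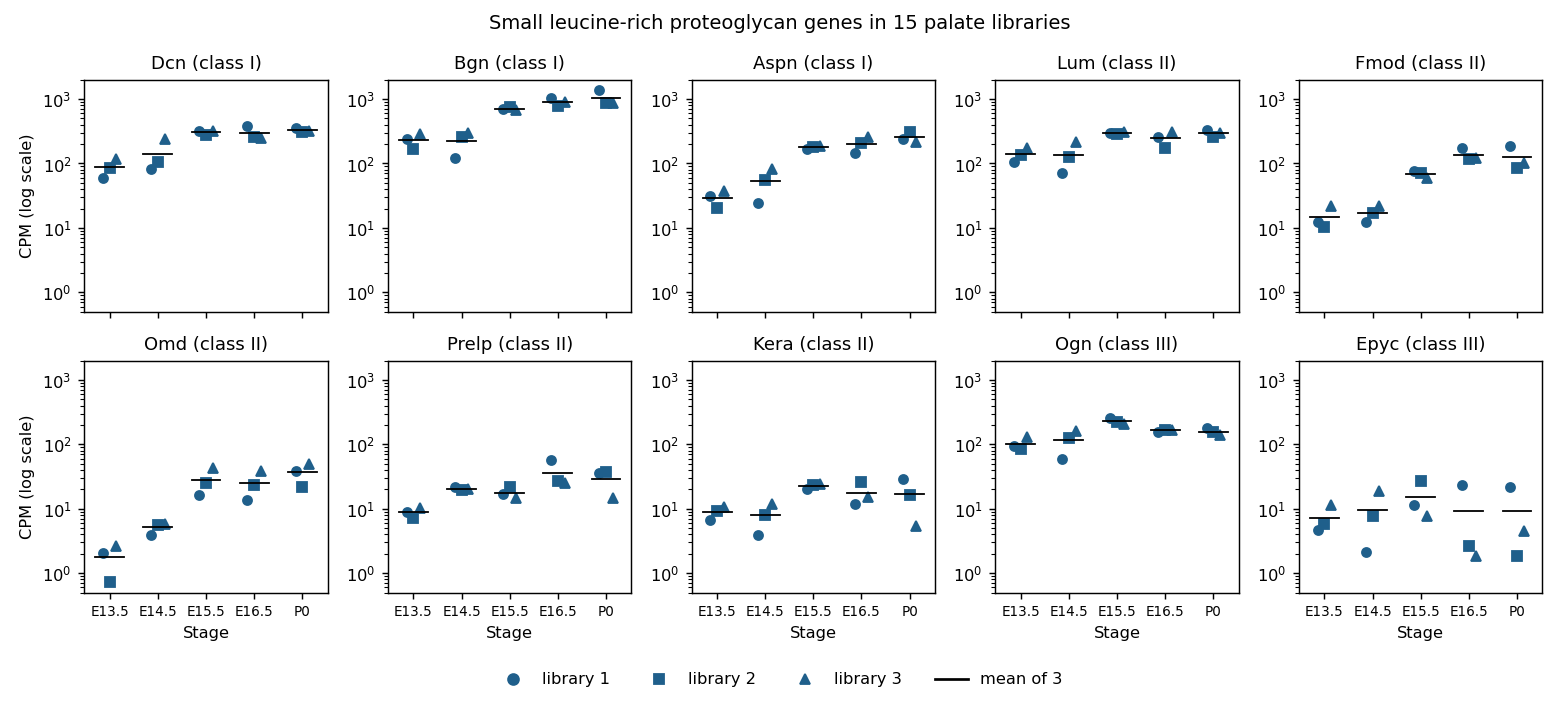
CPM (log scale) of each gene in the 15 libraries by stage, with circles, squares and triangles for libraries 1, 2 and 3 and a bar at the mean of 3. *Bgn* runs from 124 to 1400 CPM across all libraries, while in *Epyc* library 1 of E16.5 and P0 lies far above the other 2.

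Among the class I genes, *Bgn* encodes biglycan, a proteoglycan of bone and other connective tissue that binds collagen and Toll-like receptors. It stood at 242, 165 and 292 CPM in E13.5 libraries 1, 2 and 3 and at 124, 258 and 298 CPM at E14.5. It then stood at 706, 742 and 677 CPM at E15.5, at 1046, 784 and 896 CPM at E16.5, and at 1399.7, 874 and 883 CPM at P0. The E13.5 and E14.5 libraries overlapped, all E15.5 libraries lay above them, all E16.5 libraries lay above those of E15.5, and E16.5 and P0 overlapped. The log2 fold change was 1.64 (SE 0.308, adjusted p = 0.00362) for E15.5 against E14.5 and 2.17 (SE 0.313, adjusted p = 1.15e-04) for P0 against E13.5. The step from E15.5 to E16.5, 0.36 (SE 0.301), did not pass (adjusted p = 0.510) although the libraries did not overlap.

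*Bgn* is X-linked, and the pools differed in Y-linked transcripts. The sum of 4 Y-linked transcripts stayed at or below 0.332 CPM in all 3 E16.5 libraries, with *Xist* at 269 to 674 CPM, so at E16.5 stage and sex cannot be told apart. Within E15.5, libraries with 0.337, 55.3 and 160 CPM of Y-linked transcripts had 706, 742 and 677 CPM of *Bgn*. Within P0, libraries with 86.2, 0.457 and 130 CPM had 1399.7, 874 and 883 CPM.

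*Dcn* encodes decorin, which coats collagen I fibrils and binds TGF-beta and the EGF receptor. Its levels were 60.2, 85.6 and 117 CPM at E13.5 and 81.0, 106 and 239 CPM at E14.5. They were 323, 279 and 315 CPM at E15.5, 382, 260.0 and 253 CPM at E16.5, and 353, 307 and 321 CPM at P0. The last 3 stages overlapped one another and lay above every library of the first 2. It rose by a log2 fold change of 1.11 (SE 0.346, adjusted p = 0.0339) for E15.5 against E14.5 and 1.90 (SE 0.354, adjusted p = 6.81e-04) for P0 against E13.5.

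*Aspn* encodes asporin, a collagen-binding protein of periodontal ligament and bone that binds TGF-beta and usually carries no chondroitin or dermatan sulfate chain. It measured 31.2, 20.2 and 37.3 CPM at E13.5, 24.5, 55.7 and 81.8 CPM at E14.5, and 170, 179 and 189 CPM at E15.5. At E16.5 it measured 145, 205 and 262 CPM and at P0 244, 306 and 214 CPM, where P0 overlapped E16.5 and lay above E15.5, and all 3 stages lay above the first 2. It rose with a log2 fold change of 1.73 (SE 0.367, adjusted p = 0.00634) between E14.5 and E15.5 and of 3.11 (SE 0.387, adjusted p = 4.21e-05) between E13.5 and P0, an 8.62-fold difference. Between E13.5 and E14.5 the value was 0.87 (SE 0.360) and did not pass (adjusted p = 0.269).

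Of the class II genes, *Lum* encodes lumican, a keratan sulfate proteoglycan known for ordering collagen fibrils in the cornea. Its levels were 105, 135 and 176 CPM at E13.5 and 71.8, 126 and 214 CPM at E14.5. They were 298, 285 and 313 CPM at E15.5, 259, 177 and 308 CPM at E16.5, and 331, 261 and 293 CPM at P0. All E15.5 and P0 libraries lay above all E13.5 and E14.5 libraries, while E16.5 library 2 fell below the highest E14.5 library. Its log2 fold change was 1.121 (SE 0.326, adjusted p = 0.0255) for E15.5 against E14.5 and 1.09 (SE 0.326, adjusted p = 0.0127) for P0 against E13.5, so the difference over the whole span was no larger than that single step. Without E13.5 library 1 the latter did not pass (0.92, adjusted p = 0.0584).

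*Fmod* encodes fibromodulin, a tyrosine-sulfated proteoglycan of tendon, cartilage and bone that shares its collagen binding site with lumican. It stood at 12.5, 10.4 and 21.8 CPM at E13.5 and at 12.4, 16.997 and 21.9 CPM at E14.5. It then stood at 77.8, 72.1 and 58.6 CPM at E15.5, 173, 116 and 121 CPM at E16.5, and 187, 86.0 and 104 CPM at P0. E13.5 and E14.5 overlapped, E15.5 lay above both, and E16.5 and P0 overlapped each other and lay above E15.5. The fitted log2 fold change was 2.02 (SE 0.343, adjusted p = 0.00231) for E15.5 against E14.5 and 3.07 (SE 0.357, adjusted p = 2.73e-05) for P0 against E13.5. For E16.5 against E15.5 it was 0.97 (SE 0.333) with an adjusted p of 0.126, and DESeq2 gave 0.98 with an adjusted p of 0.0486.

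*Omd* encodes osteomodulin, also called osteoadherin, a keratan sulfate proteoglycan made by osteoblasts. By mean level per length it was the scarcest of the 10 genes at E13.5 and E14.5, and its rise was the largest. At E14.5 its range per length overlapped those of *Kera* and *Epyc*. Its levels were 2.05, 0.733 and 2.64 CPM at E13.5 and 3.93, 5.69 and 5.90 CPM at E14.5. They were 16.2, 24.7 and 42.5 CPM at E15.5, 13.5, 23.1 and 38.5 CPM at E16.5, and 38.9, 22.0 and 49.3 CPM at P0. Every E14.5 library lay above every E13.5 library and every later library above every E14.5 library, and the last 3 stages overlapped. Its log2 fold change was 2.43 (SE 0.521, adjusted p = 0.00673) for E15.5 against E14.5 and 4.34 (SE 0.570, adjusted p = 6.02e-05), or 20.3-fold, for P0 against E13.5. For E14.5 against E13.5 it was 1.52 (SE 0.514) and did not pass (adjusted p = 0.208).

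*Prelp* encodes a protein without chondroitin, dermatan or keratan sulfate chains, whose basic end binds heparan sulfate, linking basement membranes to the matrix. It measured 8.94, 7.23 and 10.2 CPM at E13.5, 21.8, 19.5 and 20.2 CPM at E14.5, and 16.9, 22.0 and 14.7 CPM at E15.5. It measured 56.6, 27.2 and 25.1 CPM at E16.5 and 35.6, 36.8 and 14.5 CPM at P0. All libraries of the later stages lay above those of E13.5, and E16.5 lay above E14.5 and E15.5 while P0 overlapped them all. Its log2 fold change for E15.5 against E14.5 was -0.20 (SE 0.353, adjusted p = 0.707), and for P0 against E13.5 it was 1.72 (SE 0.363, adjusted p = 0.00156). The value for E14.5 against E13.5, 1.22 (SE 0.358), did not pass in edgeR (adjusted p = 0.169) and passed in DESeq2 (1.21, adjusted p = 0.0332). The E16.5 step gave 1.02 (SE 0.356, adjusted p = 0.132), the libraries not overlapping.

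The spread of *Prelp* at the last 2 stages ran in the same order as that of skeletal muscle transcripts. The summed level of 8 muscle markers was 38671, 18369 and 12859 CPM in E16.5 libraries 1, 2 and 3, and 29490, 37051 and 6028 CPM at P0. In libraries 1, 2 and 3 it was 229, 282 and 425 CPM at E13.5 and 246, 349 and 1128 CPM at E14.5. At E15.5 it was 5092, 2747 and 1839 CPM. At none of these earlier stages did *Prelp* run in the order of the muscle markers. None of the 8 was at 0 in any library. Of these markers, 6 of 8 rose between E13.5 and P0 (median log2 fold change 6.18), where 29.8% of all tested genes did. The summed level of 6 endothelium markers, at 525, 624 and 399 CPM at P0, ran in the order of *Prelp* too. At E16.5 it did not (676, 409 and 414 CPM). The part of either tissue in the *Prelp* values was not tested.

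*Kera* encodes keratocan, a keratan sulfate proteoglycan best known from the corneal stroma. It stood at 6.68, 9.25 and 10.7 CPM at E13.5 and at 3.93, 7.95 and 11.8 CPM at E14.5. It stood at 20.1, 23.6 and 24.1 CPM at E15.5, 11.7, 26.2 and 15.3 CPM at E16.5, and 29.0, 16.4 and 5.31 CPM at P0. The E15.5 libraries lay above all earlier ones, while the P0 libraries ran from below the lowest E13.5 library to above the highest E15.5 library. The log2 fold change for E15.5 against E14.5 was 1.52 (SE 0.525) with an adjusted p of 0.0497, and it did not pass with the replicate number as a block (1.54, adjusted p = 0.0656) or with no filter on low counts (1.56, adjusted p = 0.0514). For P0 against E13.5 it was 0.93 (SE 0.520, adjusted p = 0.141), and without P0 library 3 it was 1.37 (adjusted p = 0.0179). In E13.5 library 2, where lens transcripts were high, *Kera* lay between the other 2 libraries of that stage. The corneal keratin *Krt12* was at 0 there, but it reached no more than 0.222 CPM in any library. It therefore could not show whether corneal tissue was present.

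In class III, *Ogn* encodes osteoglycin, also called mimecan, a small proteoglycan of bone and connective tissue. Its levels were 95.0, 85.7 and 129 CPM at E13.5 and 58.5, 126 and 162 CPM at E14.5. They were 257, 222 and 209.8 CPM at E15.5, 158, 170.1 and 169 CPM at E16.5, and 179.6, 154 and 139 CPM at P0. *Ogn* peaked at E15.5: every E15.5 library lay above every library of any other stage. It rose by 0.99 on the log2 scale (SE 0.281, adjusted p = 0.0229) from E14.5 to E15.5. The lower level at E16.5, -0.47 (SE 0.279), did not pass (adjusted p = 0.343), and neither did P0 against E13.5 (0.61, SE 0.280, adjusted p = 0.0802).

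*Epyc* encodes epiphycan, a proteoglycan of growing cartilage. It measured 4.69, 5.76 and 11.5 CPM at E13.5, 2.10, 7.78 and 18.97 CPM at E14.5, and 11.3, 27.1 and 7.75 CPM at E15.5. It measured 23.5, 2.60 and 1.84 CPM at E16.5 and 21.9, 1.86 and 4.44 CPM at P0. All stages overlapped, and the coefficient of variation reached 132% at E16.5 and 116% at P0, against 7.22% for *Dcn* at P0. None of the 5 contrasts passed, with log2 fold changes between -0.72 and 0.68 and an SE near 1.07, and the test over all stages did not pass either (adjusted p = 0.890). At this spread a change of the size seen in its cluster neighbours was not detectable.

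Cartilage transcripts were set beside these values. In 5 of 5 stages the library highest in *Epyc* was also highest in the summed level of 10 cartilage markers, of which none was at 0. These markers summed to 3058 CPM in E13.5 library 3 against 1145 and 2667 CPM in the others of that stage, and to 2987 CPM in E14.5 library 3 against 454 and 2342 CPM. E15.5 library 2 had 1881 CPM against 654 and 807 CPM, E16.5 library 1 had 1660 CPM against 455 and 583 CPM, and P0 library 1 had 1254 CPM against 411 and 432 CPM. Below the highest library the orders did not always match: E13.5 library 1, with 2667 CPM of the markers, had the lowest *Epyc* of its stage, and E15.5 library 1, with 654 CPM, had more *Epyc* than library 3, with 807 CPM. None of the 10 cartilage markers passed between E14.5 and E15.5 (edgeR, 2 at an unadjusted p under 0.05, median log2 fold change -0.80). At that step 26.1% of all tested genes passed and 39.7% had such an unadjusted p. The part of cartilage content in the *Epyc* values was not tested.

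**Figure D3:**
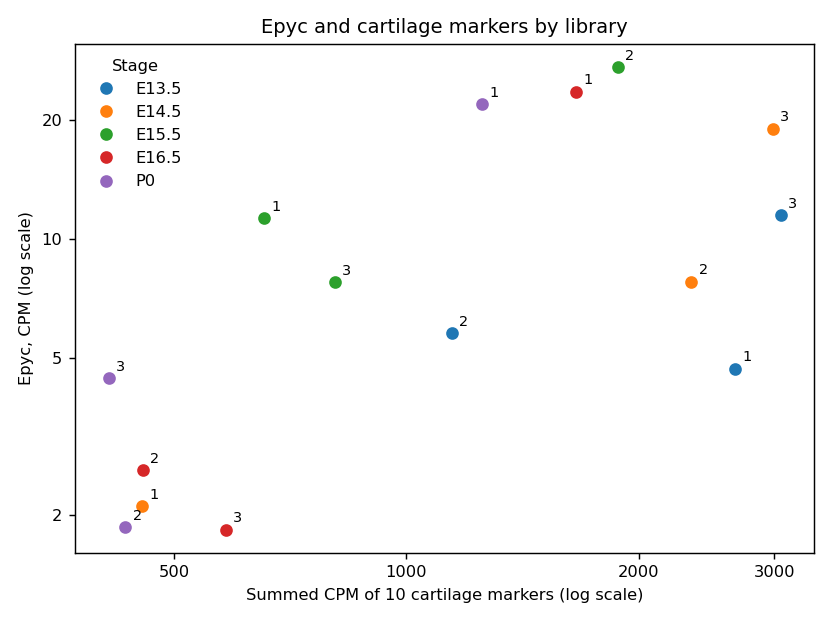
*Epyc* (CPM, log scale) against the summed CPM of 10 cartilage markers (log scale) in the 15 libraries, coloured by stage and numbered by library. Within every stage the point farthest to the right is also the highest, as for E16.5 library 1 (1660 CPM of markers, 23.5 CPM of *Epyc*).

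At the other steps between neighbouring stages few genes of the whole table passed, so a lack of calls says little about these 10. For E14.5 against E13.5 the fitted log2 fold changes of *Omd* (1.52) and *Prelp* (1.22) exceeded that of *Dcn* for E15.5 against E14.5 (1.11). Between E13.5 and E14.5 none of the 10 passed (edgeR, 3 at an unadjusted p under 0.05: *Omd*, *Prelp* and *Aspn*), where 0.00903% of all tested genes passed and 16% had such an unadjusted p. *Omd* and *Prelp* were higher without overlap at that step, as were 15.5% of tested genes, and none was lower without overlap, as 13.7% were. DESeq2 called 1 of the 10 there, *Prelp*. Between E15.5 and E16.5 none passed in edgeR (2 at an unadjusted p under 0.05, *Fmod* and *Prelp*), where 1.41% of genes passed (1.03% higher, 0.379% lower) and 21.8% had such an unadjusted p. DESeq2 called 1, *Fmod*. *Bgn*, *Fmod* and *Prelp* were higher without overlap, as were 15.7% of genes, and *Ogn* was lower, as were 15.5%. Between E16.5 and P0 none passed in edgeR or DESeq2 and none had an unadjusted p under 0.05, where 0.352% of genes passed in edgeR (0.19% higher, 0.163% lower) and 11.7% had such an unadjusted p. All 10 overlapped there, where 6.23% of genes were higher and 5.39% lower without overlap.

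Over the whole span, 7 of the 10 genes were higher at P0 than at E13.5, all but *Kera*, *Ogn* and *Epyc*, and none was lower. Among tested genes 29.8% were called higher, 26.8% lower and 56.6% in all. An unadjusted p under 0.05 was found for 8 of the 10 and for 61.7% of tested genes. Without overlap, 8 of the 10 were higher (30.2% of tested genes) and none was lower (28.9%). All 7 rose at least 2-fold, as did 22.4% of tested genes, and the median log2 fold change of the 10 was 1.81 against 0.03 over all genes. The count was 6 without E13.5 library 1, where *Lum* was lost, and 8 without P0 library 3, where *Kera* was gained. It was 7 without any of the other 4 libraries, among them E13.5 library 2 with its lens transcripts and P0 library 2 with its choroid plexus transcripts. In the test over all 5 stages 8 genes changed, all but *Kera* (adjusted p = 0.0787) and *Epyc* (adjusted p = 0.890), and so did 59.1% of tested genes. Neighbouring contrasts share the libraries of a stage, and this one shares its libraries with the first and the last step.

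**Figure D4:**
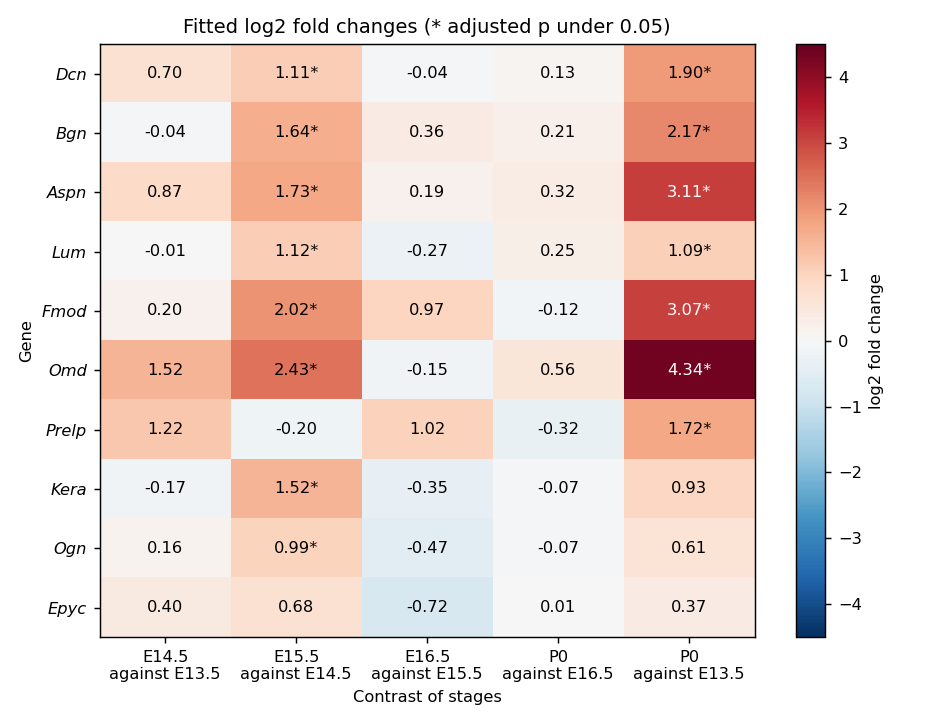
Fitted log2 fold changes of the 10 genes (rows, class I to class III from top to bottom) in the 5 contrasts (columns), coloured from blue (lower) to red (higher), with an asterisk for an adjusted p under 0.05. Asterisks stand in 8 cells for E15.5 against E14.5, in 7 for P0 against E13.5 and in none of the other 3 contrasts.

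Levels of different genes were compared per length, as CPM per kilobase of exon (RPKM). At E13.5 *Lum* led with 56.6 ± 14.6 RPKM (SD, n = 3), then *Ogn* with 40.3 ± 8.94 and *Bgn* with 38.2 ± 10.5, the ranges of these neighbours overlapping. *Dcn* (14.996 ± 4.86 RPKM) and *Aspn* (12.6 ± 3.68 RPKM) followed without reaching them, and *Fmod*, *Kera*, *Epyc* and *Prelp* lay between 2.43 and 4.51 RPKM. *Omd* was lowest, at 0.804 ± 0.435 RPKM, below every library of the others. At P0 *Bgn* led with 172.5 ± 49.4 RPKM, above all libraries of *Lum* (120.4 ± 14.5 RPKM) and *Aspn* (108 ± 19.9 RPKM), which overlapped. *Ogn* (61.4 ± 8.04 RPKM) and *Dcn* (56.1 ± 4.05 RPKM) came next, and *Omd* at 16.3 ± 6.11 RPKM stood in the seventh place above *Prelp*, *Kera* and *Epyc*, with overlap.

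The make-up of the family changed accordingly. *Lum* supplied 32.0% ± 4.43 (SD, n = 3) of the summed RPKM of the 10 genes at E13.5 and 20.5% ± 1.95 at P0, and *Ogn* 22.8% ± 0.920 and 10.4% ± 0.537. In the opposite direction, *Aspn* went from 7.08% ± 1.42 to 18.6% ± 4.67, *Bgn* from 21.6% ± 3.82 to 28.8% ± 3.37, *Fmod* from 2.49% ± 0.414 to 6.25% ± 1.66 and *Omd* from 0.442% ± 0.198 to 2.81% ± 1.22. For all 6 of these genes the E13.5 and P0 libraries did not overlap. *Dcn* kept a mean share between 8.42% and 11.6% at every stage, with single libraries from 6.64% at E13.5 to 13.6% at E14.5. These shares were not tested.

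**Figure D5:**
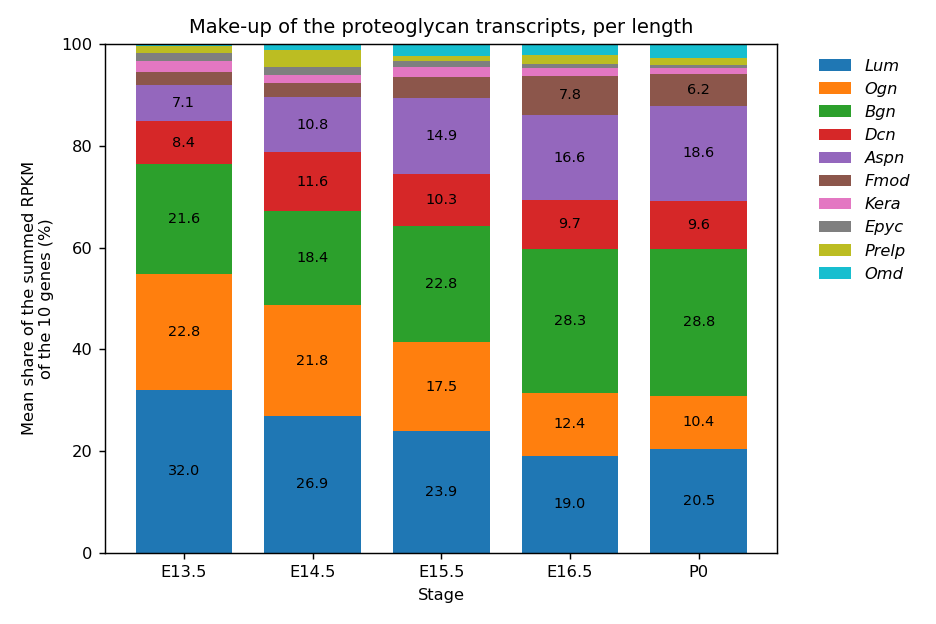
Stacked bars of the mean share (%) of each gene in the summed RPKM of the 10 genes at each stage, n = 3 libraries, with shares above 6% printed. The *Lum* and *Ogn* segments at the bottom shrink from 32.0% and 22.8% at E13.5 to 20.5% and 10.4% at P0, while *Aspn* grows from 7.08% to 18.6%.

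Together the 10 genes made up 634 ± 153 CPM (SD, n = 3) in the E13.5 libraries and 736 ± 335 CPM in those of E14.5. Their sum was 1875 ± 22.3 CPM in the E15.5 libraries, 2049 ± 241 CPM in those of E16.5 and 2304 ± 447 CPM in those of P0. The E15.5 libraries ran only from 1852 to 1896 CPM, while those of E14.5 ran from 404 to 1075 CPM. At E14.5 library 1 was the lowest for 9 of the 10 genes and library 3 the highest for 9, *Prelp* being the exception both times. The 11 fibrillar and fibril-surface collagens ran in the same order, at 4259, 9469 and 12135 CPM in E14.5 libraries 1, 2 and 3. The order was not particular to matrix genes. Summed markers of palate mesenchyme (552, 814 and 937 CPM), osteoblasts (721, 957 and 1344 CPM) and cartilage (454, 2342 and 2987 CPM) followed it. Those of oral epithelium (387, 430 and 519 CPM) and endothelium (288, 362 and 369 CPM) did too. Choroid plexus markers, at 1409, 31.1 and 774 CPM, and tooth markers, at 14.5, 14.2 and 18.5 CPM, did not follow that order. The part of any of these tissues in the spread was not tested. For every 100 fragments of these collagens, not corrected for length, the 10 proteoglycan genes had 7.02 ± 0.989 fragments (SD, n = 3) in the E13.5 libraries and 8.68 ± 0.898 in those of E14.5. They had 5.64 ± 0.442 in the E15.5 libraries, 5.67 ± 0.650 in those of E16.5 and 5.07 ± 0.587 in those of P0. All E14.5 libraries (7.71 to 9.48) lay above all libraries of the later stages (4.40 to 6.35).

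Across the 15 libraries, which share the course of the stages, *Bgn* and *Fmod* ran most alike of all pairs of the 10 (Pearson r of log2 CPM 0.976, a description). Among *Dcn*, *Bgn*, *Lum*, *Fmod*, *Omd* and *Aspn* the r lay between 0.783 and 0.976. *Epyc* had an r of 0.00855 to 0.436 with the other 9, *Prelp* of 0.104 to 0.711, *Kera* of 0.320 to 0.824 and *Ogn* of 0.353 to 0.879. Neighbours in a cluster ranged from close to loose. On chromosome 13 *Aspn* and *Omd* had an r of 0.945 but *Omd* and *Ogn* 0.705, on chromosome 1 *Fmod* and *Prelp* had 0.711, and on chromosome 10 *Dcn* and *Lum* had 0.908 but *Kera* and *Epyc* 0.320.

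Among 13045 tested genes with a stage mean of at least 10 CPM, those close to each proteoglycan gene over the 15 libraries were as follows. *Bgn* ran closest to *Pcolce* (r = 0.990), *Anpep* (0.990) and *Tnfsf12* (0.988), and *Fmod* to *Arpc1b* (0.989), *Tmed3* (0.987) and *Castor1* (0.986). *Dcn* ran closest to *F13a1* (0.963), *Cma1* (0.958) and *Tpsb2* (0.955), and *Aspn* to *Phex* (0.976), *Postn* (0.971) and *Pdgfrl* (0.969). *Omd* ran closest to *Ibsp* (0.973), *Sgms2* (0.972) and *Slc13a5* (0.970), *Lum* to *Srpx* (0.948), *Adamts2* (0.937) and *Col5a2* (0.934), and *Ogn* to *Ccn4* (0.965), *Tmem45a* (0.952) and *Igf1* (0.950). The likeness was looser for *Prelp*, with *Neurl1a* (0.929) and *Ppp1r3c* (0.920), for *Epyc*, led by *Otor* (0.909), *Txndc12* (0.851) and *Mfap2* (0.804), and for *Kera*, led by *Antxr2* (0.850), *Ripor3* (0.848) and *Odr4* (0.836). *Otor* shared the high values of *Epyc* in E15.5 library 2 (45.7 CPM), E16.5 library 1 (91.5 CPM) and P0 library 1 (38.1 CPM).

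Most collagens of the fibrils that these proteins coat rose at the same step. Of the 11, 8 were higher at E15.5 than at E14.5 and none was lower (median log2 fold change 1.40). Among all tested genes 12.7% were higher and 13.4% lower. The chains of collagen I stood out: *Col1a1* went from 1504 ± 584 CPM (SD, n = 3) to 13597 ± 1186 CPM, a log2 fold change of 3.18 (SE 0.344, adjusted p = 2.54e-04), which was above that of any of the 10 proteoglycan genes. *Col1a2* rose by a log2 fold change of 2.49, *Col5a1* by 1.40 and *Col3a1* by 1.08 (adjusted p = 7.59e-04, 0.00566 and 0.0230). From E13.5 to P0 8 of the 11 were higher and none was lower, against 29.8% and 26.8% of all tested genes. DESeq2, and edgeR without P0 library 1, called 1 lower. Without both E14.5 libraries rich in choroid plexus transcripts 3 of the 11 passed for E15.5 against E14.5.

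The enzymes that build the sugar chains changed in both directions at this step. Of 22 enzymes of chondroitin and dermatan sulfate, 2 were higher at E15.5 than at E14.5 and 3 were lower, where 12.7% and 13.4% of all tested genes were (median log2 fold change 0.15). The 2 were *Chpf2* (0.67, adjusted p = 0.0182), a chain polymerizing factor, and *Chst13* (3.52, adjusted p = 0.00211), a sulfotransferase at a mean of 3.30 CPM at E15.5. The 3 were *Fam20b* (-0.40, adjusted p = 0.0103), *Xylt1* (-0.55, adjusted p = 0.0326) and *B3galt6* (-0.61, adjusted p = 0.00412), which all act on the linker that joins the chain to the core protein (*Xylt1* and *B3galt6* were named after their values were seen). Of the other abundant members, *Chpf* (0.36), *Chsy1* (0.11) and *B3gat3* (-0.36) did not pass. Between E13.5 and P0, 5 of the 22 were higher and 8 were lower, where 29.8% and 26.8% of all tested genes were. The count lower was 5 without P0 library 2 and with only the 6 libraries of the contrast. The higher count at E15.5 was 1 without E14.5 library 1 or without E15.5 library 1, and 4 with only the 6 libraries. With no filter on low counts 1 was lower. Without both E14.5 libraries rich in choroid plexus transcripts none of the 22, and none of the keratan sulfate enzymes described next, was called in either direction.

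Of 8 enzymes of keratan sulfate, 2 were higher at E15.5, *B4galt1* (0.97, adjusted p = 0.0139) and *B3gnt2* (1.62, adjusted p = 0.00745, under 0.5 CPM at both stages), and *Chst1*, which sulfates the galactose of the chain, was lower (-0.71, adjusted p = 0.0153). *Chst2* (-0.41) and *B4galt4* (-0.09) did not pass. At this step 12.7% of all tested genes were higher and 13.4% lower. Without E14.5 library 1 or 2 the higher count was 1, and without E14.5 library 1 or E15.5 library 3 *Chst1* was lost. Over the whole span 4 of the 8 were higher and 1 was lower, against 29.8% and 26.8% of all tested genes. The 1 was *Chst2* (-0.83, adjusted p = 0.00408). Of the enzymes that sulfate tyrosines of proteins such as fibromodulin and osteomodulin, *Tpst2* was higher at P0 than at E13.5 (0.94, adjusted p = 1.97e-04) and *Tpst1* had a value of 0.03 (adjusted p = 0.890). At the E15.5 step *Tpst2* did not pass (0.42, adjusted p = 0.0506).

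Between E14.5 and E15.5, 12.7% of all tested genes were higher and 13.4% lower. Of a list of 9 matrix proteases and helpers, 5 were higher at that step and none was lower. They were the membrane protease *Mmp14* (0.68, adjusted p = 0.0487), the procollagen C-proteinase enhancer *Pcolce* (2.15, adjusted p = 0.00134), the collagenase *Mmp13* (6.59, adjusted p = 5.48e-04) and the aggrecanases *Adamts5* (0.93, adjusted p = 0.0371) and *Adamts4* (0.58, adjusted p = 0.0425), the last 3 named after their values were seen. *Mmp2* (0.79) and *Bmp1* (0.32), which cuts the propeptide of biglycan, did not pass. The count of 5 was 2 without E14.5 library 1 or 2 or without E15.5 library 1 or 2, 3 without E15.5 library 3 or with no filter, and 1 without both E14.5 libraries rich in choroid plexus transcripts. Between E13.5 and P0, 5 of the 9 were higher and 2 lower, where 29.8% and 26.8% of all tested genes were. The 2 were *Adamts4* (-0.71, adjusted p = 0.00748) and *Tll1* (-1.16, adjusted p = 0.00105). The count higher was 3 without E13.5 library 2 and 2 without P0 library 1.

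Of 12 growth factors and receptors bound by these proteins, 4 were higher at E15.5 than at E14.5 and none was lower. Over all tested genes the shares were 12.7% and 13.4%. *Tgfb3* (0.93, adjusted p = 0.0456), *Tgfb1* (1.58, adjusted p = 0.00348), the matricellular factor *Ccn4* (1.01, adjusted p = 0.0220) and the biglycan receptor *Tlr4* (1.57, adjusted p = 0.00592) were the 4, the last 3 named after their values were seen. *Igf1r* (-0.35), *Ccn2* (0.39) and *Tgfb2* (0.07) did not pass. Without E14.5 library 1 or E15.5 library 1, and with only the 6 libraries of the contrast, 2 passed, and without both E14.5 libraries rich in choroid plexus transcripts none did. Between E13.5 and P0, 4 of the 12 were higher and 2 lower, where 29.8% and 26.8% of all tested genes were. The 2 were *Igf1r* (-0.95, adjusted p = 0.00123) and *Tgfb2* (-0.67, adjusted p = 0.0475), and the count lower fell to 1 under several alternatives.

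Further genes of the leucine-rich proteoglycan family were measured as well, beside 12.7% of all tested genes higher and 13.4% lower at E15.5 than at E14.5. Of 7, *Podnl1* (2.92, adjusted p = 0.00217), *Podn* (1.31, adjusted p = 0.0151) and *Tsku* (0.66, adjusted p = 0.0423) were higher at E15.5 than at E14.5, 1 of the 3 without E14.5 library 1 and none without both E14.5 libraries rich in choroid plexus transcripts. *Optc*, the opticin gene known from the vitreous of the eye, was lower (-1.60, adjusted p = 0.00207), falling from 4.22 ± 0.972 to 1.40 ± 0.128 CPM (SD, n = 3). At the next step, where none of the 10 passed, *Chad* (2.83, adjusted p = 0.0486), the chondroadherin gene, and *Ecm2* (1.10, adjusted p = 0.0350) were higher at E16.5. Over the whole span 5 of the 7 were higher and 1, *Optc*, was lower, against 29.8% and 26.8% of all tested genes. The *Optc* call was lost without E13.5 library 2 and with only the 6 libraries of the contrast.

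Markers of several cell types moved at the same step as the proteoglycan genes, where 12.7% of all tested genes were higher and 13.4% lower. Of 10 osteoblast markers 9 rose between E14.5 and E15.5 (median log2 fold change 2.38), and their summed level ran from 657 to 1344 CPM over the E13.5 and E14.5 libraries and from 4854 to 6302 CPM over those of E15.5. It ran from 6605 to 9560 CPM over the E16.5 libraries and from 8035 to 15779 CPM over those of P0. Of 8 tendon and ligament markers 4 rose at that step (median 0.96), from a sum of 750 to 1274 CPM to one of 1817 to 2667 CPM. Of 9 markers of palate mesenchyme none rose and 1 fell (median -0.12), with sums of 552 to 937 CPM at E14.5 and 679 to 824 CPM at E15.5. Of 8 skeletal muscle markers 6 rose (median 2.53), with the sums given above. Of 6 macrophage and osteoclast markers 4 rose (median 1.09), from a sum of 72.9 to 108 CPM to one of 210 to 366 CPM, and of 9 oral epithelium markers 4 rose (median 1.47), from 387 to 519 CPM to 513 to 2157 CPM. None of 6 endothelium markers passed (edgeR, 0 at an unadjusted p under 0.05, median 0.30), with sums of 288 to 369 CPM at E14.5 and 372 to 437 CPM at E15.5. No marker of these lists was at 0 in any library. The part of these cell types in the levels of the 10 genes was not tested. The dependence of these marker counts on single libraries was not tested either.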

How the data were processed

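Total RNA of wild-type mouse palates, pooled from 3 embryos per library, was sequenced in 15 libraries. The authors deposited 1 table of raw read-pair counts per gene, made with featureCounts 2.0.1 with reverse-strand counting on GENCODE M18 from trimmed, duplicate-marked alignments, per the file headers. The submitters' processing notes name the build mm10 and cutadapt 3.4, HISAT2 2.2.1, Bowtie2 and SAMtools. Groups come from the stage in the labels, and every column of the table was mapped.

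Counts were fitted with edgeR 4.0.16 in R 4.3.3 (TMM scaling, filterByExpr with a minimum count of 10, quasi-likelihood test, 1 coefficient per stage over all 15 libraries), with p-values adjusted by Benjamini-Hochberg over 22151 genes and a threshold of 0.05. Any sentence with an adjusted p uses this test unless it names DESeq2. CPM used TMM-adjusted totals, and RPKM the exon length in the table. Likeness used log2 CPM with a prior count of 2, naming up to 3 genes per member, and a gene that this rule names is not reported here. The common biological coefficient of variation was 0.332. Alternatives were DESeq2 1.42.0, its size factors, upper-quartile scaling, other filters, fits to the 6 libraries compared, a block for the replicate number, and leaving out each library in turn. The fit was also run on simulated counts that held no other tissue, and no result here rests on that run. Promoters are from RefSeq tables, with GENCODE names matched for 54079 of 54232 genes.

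The members and gene lists were chosen with earlier results of these data known. All 10 members are named. Of other lists the 4 genes with the highest mean CPM are named, and any called where 1 or 2 were called.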

Additional observations from a re-analysis of the deposited data

How the results depend on the processing

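Under DESeq2 1 of the 10 genes passed for E14.5 against E13.5 (4.51% of all genes) and 1 for E16.5 against E15.5 (9.45%), where edgeR called none. For E15.5 against E14.5 the count of 8 was 8 under DESeq2, its size factors, upper-quartile scaling and the filter on mean CPM, 7 with no filter and with the replicate block, 5 with only the 6 libraries of the contrast and 1 without E14.5 libraries 1 and 3. It was 4 to 8 when each library was left out, where 10.2% to 25.4% of all tested genes were called. That share was 11.8% with no filter, 26.5% with the replicate block and 32.3% with only the 6 libraries. For P0 against E13.5 leaving out each library gave 6 to 8, where 46.7% to 54.9% of all tested genes were called. For the test over all stages it gave 7 to 9, where 50.2% to 59% were called. For E15.5 against E14.5 the median gene stood at a log2 fold change of 0.03, and at 0.16 with upper-quartile scaling. Correlations of deviations between same-numbered libraries ran from -0.303 to 0.548. They were positive in every contrast for library 3 (0.0382 to 0.548) and negative in every contrast for library 2 (-0.303 to -0.0452). Among the 10 genes the block changed 1 call, that of *Kera* for E15.5 against E14.5 (1.54, adjusted p = 0.0656). Over all genes it gave 135 calls for E14.5 against E13.5, where 2 passed without it.

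Directions that reversed all belonged to differences that had not passed. Leaving out each library, E14.5 against E13.5 ran from -0.28 to 0.26 for *Bgn*, from -0.48 to 0.30 for *Lum*, from -0.019 to 0.57 for *Fmod*, from -0.16 to 0.48 for *Ogn*, from -0.57 to 0.16 for *Kera* and from -0.56 to 0.88 for *Epyc*. It was 0.13 for *Bgn* without E14.5 libraries 1 and 3. *Epyc* ran from -0.022 to 1.63 for E15.5 against E14.5. For E16.5 against E15.5, *Dcn* ran from -0.27 to 0.068, *Omd* from -0.61 to 0.29 and *Aspn* from -0.033 to 0.37. For P0 against E16.5, *Bgn* ran from -0.048 to 0.32, *Fmod* from -0.53 to 0.079, *Ogn* from -0.17 to 0.0040, *Prelp* from -0.56 to 0.15, *Kera* from -0.69 to 0.35 and *Epyc* from -1.58 to 2.08. There *Kera* was 0.015 with the replicate block, and *Epyc* was -0.0057 under DESeq2, -0.0042 with its size factors and -0.056 with no filter. For P0 against E13.5 *Epyc* ran from -1.18 to 0.87 and was -0.12 with the replicate block. The cause was not tested. Each of the 10 genes had at least 52 counts in every library, and the effect of depth was not tested.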
